A study of Homo sapiens with 13 samples.

Results

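The nuclear-encoded subunits of the respiratory chain and ATP synthase were followed through an mRNA-seq experiment on hFOB 1.19, an immortalized human fetal osteoblast line. Members were the protein-coding genes whose symbols belong to the NDUFA, NDUFB, NDUFC, NDUFS and NDUFV series, SDHA to SDHD, the UQCR subunits with CYC1, the ubiquitous COX subunits, and the ATP5F1, ATP5M and ATP5P series. The rule itself uses symbols and no measured value, although it was set with earlier results of these data known. It gave 79 genes of the 43836 rows of the count table, of which 36 were assigned to complex I, 4 to complex II, 9 to complex III, 11 to complex IV and 19 to complex V (ATP synthase). NDUFA4 was counted with complex IV, where its protein is now placed despite its symbol. A further 53 rows matched the symbol patterns but were not protein-coding, and together they held 0.0207% of the reads on matching rows.

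The libraries, all from hFOB 1.19 cells, fell into 5 groups. Positive controls (2 libraries) were grown with 10% fetal bovine serum (FBS), and negative controls (2 libraries) without it. Both received the vehicle, DMSO, per the study's methods. RES (resveratrol, 3 libraries), POG (peonidin-3-O-glucoside, an anthocyanin, 3 libraries) and DEG (2 libraries) were given at 1 µg/ml to serum-starved cells. The labels did not spell out DEG, although their treatment text names delphinidin-3-glucoside beside the other compounds. Per the methods, cells were without serum for a day before RES or POG was added, and the length of exposure before harvest was not given in the sources used here. All groups therefore rest on a single cell line, and nothing in the labels says that libraries of a group came from separate cultures, so that the p-values below measure the spread between these libraries only.

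Respiration in mitochondria is carried out by 4 protein complexes of the inner membrane. Complex I (NADH dehydrogenase) and complex II (succinate dehydrogenase) feed electrons to coenzyme Q, complex III (cytochrome bc1) passes them to cytochrome c, and complex IV (cytochrome c oxidase) hands them to oxygen. Complexes I, III and IV pump protons as they do so, and complex V uses the resulting gradient to make ATP. Most subunits are encoded in the nucleus and imported, a few core subunits are encoded by mitochondrial DNA, and complex II is the only complex with no mitochondrially encoded subunit. Osteoblasts, the cells that form bone, use both glycolysis and respiration for energy.

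Counted reads per library ran from 38464619 to 51416358. The labelled cell type was checked against its markers. COL1A1 lay between 2480 and 2834 CPM (the share of a library's counted reads, here by plain library totals) and COL1A2 between 1120 and 1371. SPARC lay between 1032 and 1131 CPM, and RUNX2, the transcription factor of osteoblast commitment, between 44.4 and 51.8. The other osteoblast markers were low or absent. ALPL lay between 3.25 and 6.45 CPM, SPP1 between 0.964 and 2.32 and BGLAP between 0.43 and 2.02. SP7, which the paper names among the transcription factors of osteoblast differentiation, had 0 to 8 reads in a library. IBSP had 1 read in all libraries. Among defining markers of other cell types, CD3E and LEP had 0 reads in all libraries, ADIPOQ and MYH2 1 read, KRT5 11, CDH5 16 and PTPRC 23. TEK, which endothelial cells use, was present at 33 to 57 CPM. In such bulk samples, fewer cells of a type and less RNA per cell cannot be told apart.

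The 79 subunits took 0.468% and 0.479% of the counted reads in the negative controls and 0.564% and 0.532% in the positive controls. RES libraries ranged from 0.480% to 0.489%, POG libraries from 0.484% to 0.486%, and the DEG libraries held 0.484% and 0.489%. The positive controls thus stood above all 10 serum-free libraries, which lay close together. After a filter on low counts (filterByExpr, by group) 78 of the 79 members were among the 17092 genes tested. The exception was ATP5MGL, an ATP5MG-like gene on chromosome 22, with 0 to 5 reads in a library and 21 in all.

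Levels of different genes were compared per kb of the canonical GENCODE transcript, as scaled CPM per kb in the negative controls (TMM scaling, which equalizes libraries on the bulk of their genes). In complex I the highest was NDUFS5, a small accessory subunit, at 206 and 202 in the 2 libraries, and the lowest was NDUFA9 at 0.989 and 0.933. In complex II, SDHA, the flavoprotein that oxidizes succinate, was highest at 77.2 and 79.3, and the membrane anchor SDHD was lowest at 16.1 and 17.1. UQCRH (154 and 160) led complex III and UQCR11 (7.71 and 7.06) was its lowest member. COX4I1, the largest nuclear-encoded subunit of cytochrome c oxidase, led complex IV at 275 and 276, and NDUFA4 was lowest at 14 and 14.5. ATP5F1B, the catalytic beta subunit of ATP synthase, led complex V at 190 and 197, just above ATP5MC2 at 184 and 192, whose range overlapped with it. The read-through gene ATP5MF-PTCD1 was lowest, at 0.156 and 0.0807. These orders depend on which transcript gives the length: with the median length of coding transcripts, NDUFA9 rose from a mean of 0.961 to 12.5 per kb, UQCRB from 12.5 to 163 and ATP5F1A from 36.8 to 233.

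The first comparison asked what serum does to the subunits. Most of them were modestly higher in cells grown with serum: 64 of the 78 tested subunits rose and 1, NDUFA13, fell (edgeR exact test, false discovery rate (FDR) under 0.05 over all genes tested). Of all 17092 genes tested, 42.4% were called in this comparison, 21.4% higher and 20.9% lower, while 82.1% of the subunits were called higher. The median log2 fold change of the subunits was 0.21, a rise of 15.9%, against -0.01 over all genes tested, and single subunits ran from -0.77 to 0.49. Expressed as a sum, TMM-scaled CPM of the 78 subunits was 5863 and 5496 in the positive controls and 4707 and 4825 in the negative controls. The positive control mean of 5679 ± 259 (SD, n = 2) was 119% of the negative control mean of 4766 ± 83.4 (SD, n = 2), and the libraries did not overlap. For 72 of 78 subunits the lower positive control lay above the higher negative control or the reverse, which also held for 65.6% of all genes tested.

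**Figure D1:**
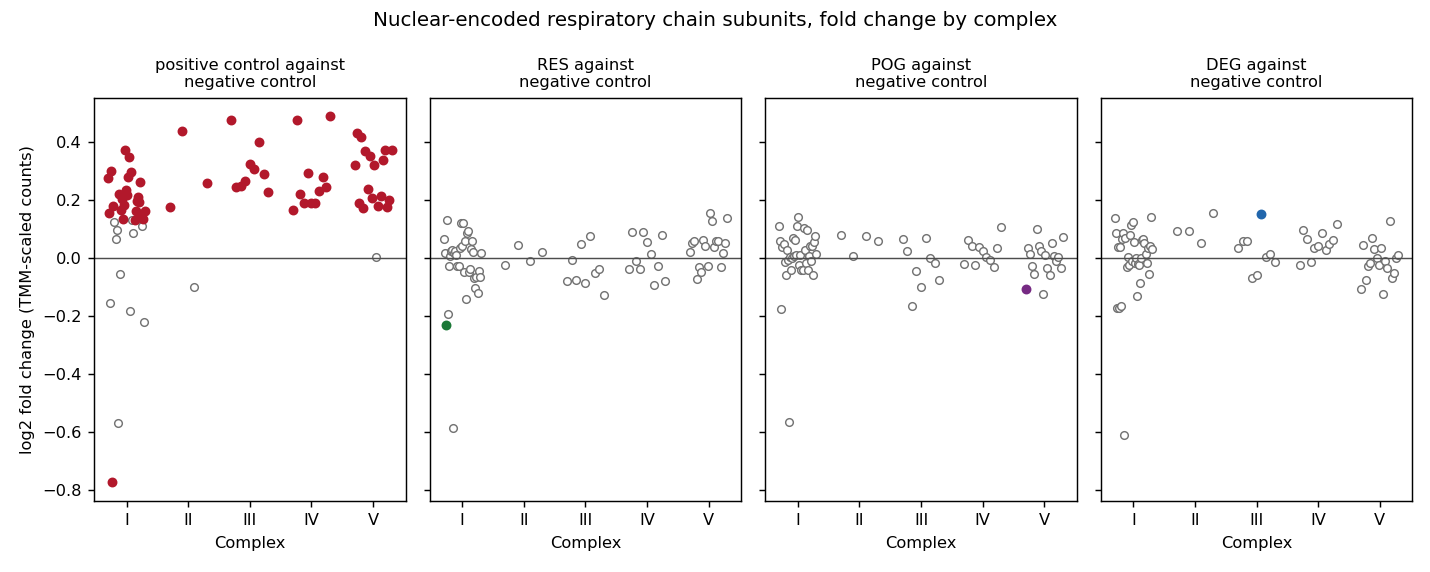
Log2 fold change against the negative control (y axis, TMM-scaled counts) of the 78 tested subunits by complex (x axis), in 1 panel per group. Each point is a subunit, filled where the edgeR exact test called it at FDR under 0.05 and open otherwise. With serum 64 points are called above 0 and 1 below, and with each compound 1 point is called.

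The subunits are expressed well, and well-expressed genes are called more often. Of the 8157 genes that averaged 20 CPM or more, a limit chosen after seeing the data, 59.6% were called with serum, 31% higher and 28.6% lower. Of the 68 subunits in that range, 62 were higher and 0 lower. The positive control libraries were not alike, since replicate 1 was above replicate 2 in the summed level of each of the 5 complexes, and leaving out each library in turn gave 50 to 67 subunits called. In every one of these fits 45 of the 65 called subunits stayed called.

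**Figure D2:**
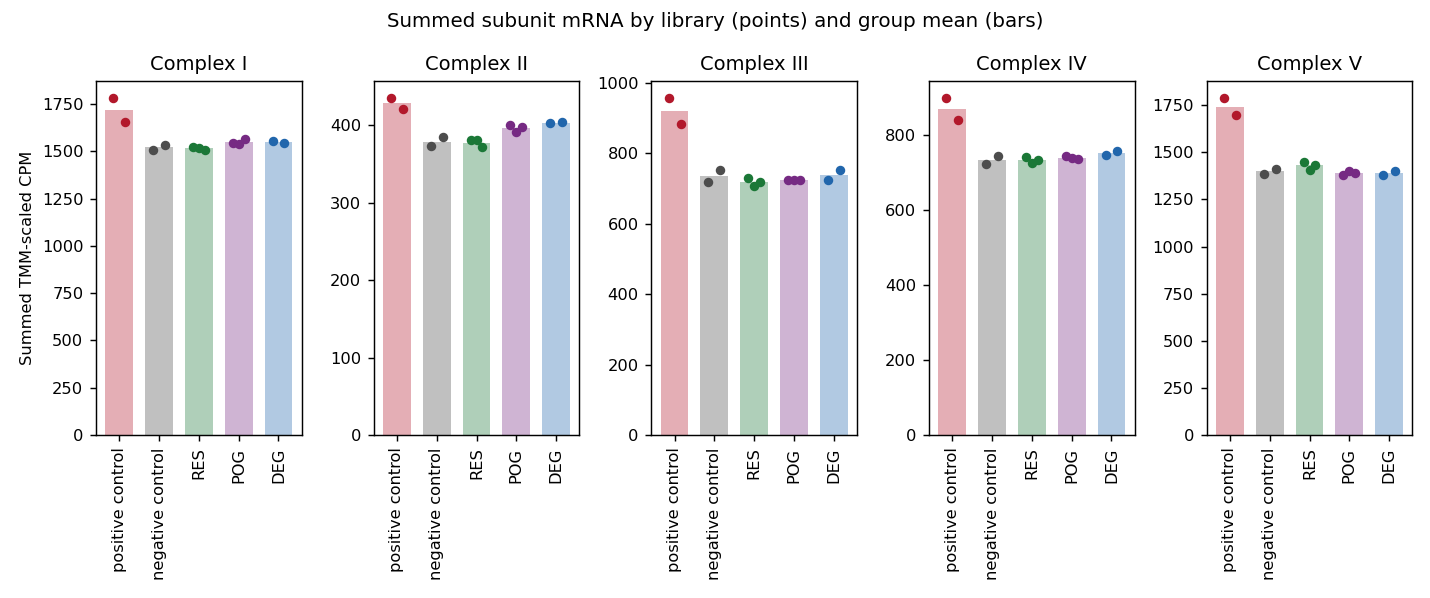
Summed TMM-scaled CPM of the tested subunits (y axis, starting at 0) in each library (points) with the group mean (bars), 1 panel per complex. In every complex the 2 positive control libraries lie above all 10 serum-free libraries, and the 4 serum-free groups lie close to each other.

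Complexes III, IV and V rose as a whole. All 9 subunits of complex III and all 11 of complex IV were called higher, as were 17 of the 18 tested subunits of complex V, 3 of 4 of complex II and 24 of 36 of complex I, where 1 was lower. The summed level with serum was 125% of the negative control in complexes III and V, 119% in complex IV and 113% in complexes I and II.

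In complex I, which takes electrons from NADH, 5 of the 7 nuclear-encoded core subunits rose, with a median log2 fold change of 0.14, and 19 of 29 accessory subunits rose, with a median of 0.18. The core subunits carry the flavin and iron-sulfur clusters. NDUFS1, the largest of them, read 121 and 123 CPM with serum and 112 and 111 without it, a log2 fold change of 0.13 ± 0.038 (SE, FDR = 0.00421, edgeR exact test). NDUFV1, which binds the flavin, rose by 0.14 in log2 units (FDR = 0.0114, same test). NDUFS8, another iron-sulfur subunit, did not pass the test at 0.11 (95% interval 0.02 to 0.20, FDR = 0.0568). The largest rises in the complex were those of accessory subunits of the membrane arm, NDUFB3 (32.7 and 29 against 23.1 and 24.6 CPM) and NDUFB7 (61.9 and 55.3 against 46.2 and 45.9 CPM). Their log2 fold changes were 0.37 (FDR = 7.31e-07) and 0.35 (FDR = 4.89e-09) in the exact test, and in both the groups stood apart. NDUFA9, the lowest member per kb, read 7.79 and 7.66 CPM against 8.26 and 7.79 and was not called, with an interval of -0.27 to 0.16.

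Complex II, the succinate dehydrogenase shared with the citric acid cycle, was split among its 4 subunits. SDHB, the iron-sulfur subunit, read 90.7 and 86.9 CPM with serum and 64.7 and 66.5 without it. Its log2 fold change was 0.44 ± 0.044 (SE, FDR = 8.44e-20, edgeR exact test), among the 5 largest of all subunits. SDHA, the flavoprotein, read 241 and 235 against 208 and 214 CPM, a smaller rise of 0.18 (FDR = 1.09e-05, same test). Its libraries also did not overlap, though reads of SDHA can be shared with its pseudogenes. Of the 2 membrane anchors, SDHD rose from 21.5 and 22.9 to 28 and 25.1 CPM, a log2 fold change of 0.26 (FDR = 0.00287, exact test), and lost its call in 2 of the 4 fits that left out a library. SDHC, the other anchor, read 75.4 and 75 CPM with serum and 79.6 and 81.6 without it. It was lower in both serum libraries but did not pass the test (-0.10, interval -0.18 to -0.01, FDR = 0.0585). Under scaling by plain library totals SDHC was called lower (FDR = 0.00443), a scaling that moved the median of all genes by -0.04 in log2 units.

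In complex III the subunits that carry electrons or frame the complex rose more than the small ones, with a median log2 fold change of 0.36 for 4 such subunits against 0.25 for 5 small subunits, a difference that was not tested. CYC1, cytochrome c1, read 140.3 and 132 CPM with serum and 92.5 and 103 without it. This rise of 0.48 ± 0.047 (log2, SE, FDR = 4.21e-20, edgeR exact test) was the third largest among the subunits. UQCRFS1, the Rieske iron-sulfur protein, read 70.7 and 62.6 against 50.5 and 50.5 CPM and rose by 0.40 (FDR = 9.72e-12, same test). The core proteins UQCRC1 and UQCRC2 rose by 0.33 and 0.31. UQCRH, the hinge protein at cytochrome c1, read 109.9 and 96.4 against 83 and 85.9 CPM, and UQCR11, a small subunit, 11.4 and 11.4 against 10.0 and 9.18. Both were called (FDR = 2.81e-07 and 0.0356, exact test) and in both the groups stood apart.

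In complex IV, NDUFA4 and COX5A had the largest rises of all subunits. NDUFA4, at chr7:10931943-10940153 (hg38, minus strand), read 42.4 and 39.1 CPM with serum and 28.5 and 29.6 without it. COX5A, at chr15:74919791-74938083 on the minus strand, read 91.4 and 87.4 against 60.6 and 67.9 CPM. The log2 fold changes were 0.49 ± 0.067 (SE, FDR = 1.06e-11) and 0.48 ± 0.051 (SE, FDR = 1.42e-17) in the edgeR exact test, or 40.4% and 39.1%. COX4I1 and the other ubiquitous subunits rose less, from 0.17 for COX4I1 to 0.30 for COX6B1, the subunit at the dimer interface. COX4I1 read 245 and 227 CPM with serum and 209.9 and 211 without it (FDR = 0.000218, same test).

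In ATP synthase all 5 subunits of the catalytic F1 head rose, with a median log2 fold change of 0.32. ATP5F1B, at chr12:56638175-56645984 on the minus strand, read 471 and 447 CPM with serum and 334 and 346 without it, a rise of 0.43 ± 0.033 (log2, SE, FDR = 4.21e-28, edgeR exact test). ATP5F1A, the alpha subunit that alternates with it in the head, read 269 and 261 against 212 and 212 CPM (0.32, FDR = 3.29e-16, same test). ATP5F1E, the small epsilon subunit, rose least in the head, by 0.17.

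The c ring, the proton-driven rotor, is encoded by 3 genes whose precursors are cut to the same mature protein. ATP5MC1 read 38.3 and 37.5 CPM with serum and 29.3 and 29.4 without it, ATP5MC2 146 and 134 against 116 and 121, and ATP5MC3 91.9 and 89 against 69.9 and 71.9. All 3 were called higher, at 0.37, 0.24 and 0.35 in log2 units (FDR = 1.21e-08, 2.85e-06 and 1.14e-14, edgeR exact test), and none of their groups overlapped. All 4 subunits of the peripheral stalk, which holds the head still, rose with a median of 0.29, and all 5 other small membrane subunits with a median of 0.21. The single member of complex V that was tested and not called was ATP5MF-PTCD1, with 0.18 to 0.45 CPM in any library and an interval of -1.14 to 1.15.

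**Figure D3:**
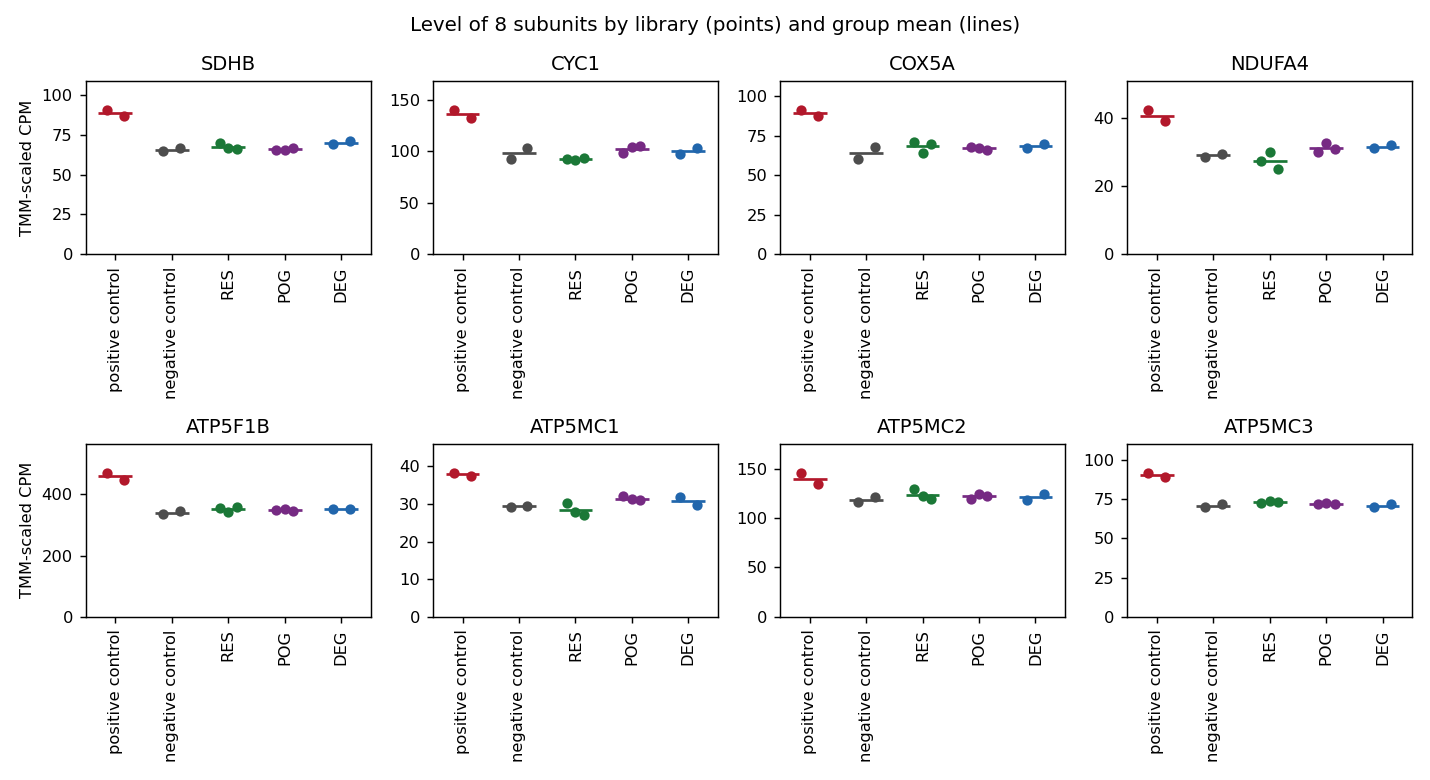
TMM-scaled CPM (y axis, starting at 0) of 8 subunits in each library (points) with the group mean (lines), by group on the x axis. In all 8 both positive control libraries lie above the 10 serum-free libraries, as NDUFA4 at 42.4 and 39.1 CPM against 25 to 32.7.

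Of the 7 subunits with a log2 fold change below 0 with serum, SDHC had 0% of its transcript under exons of other genes and NDUFA9 11.7%, and the other 5 had over 50%. For 7 members over 50% of the canonical transcript falls under exons of other genes in GENCODE on the same strand: NDUFA7, NDUFA11, NDUFA13, NDUFB8, NDUFV2, ATP5PO and ATP5MF-PTCD1. Of these, 1 rose with serum (ATP5PO) and 1 fell (NDUFA13), with a median of -0.18. Of the other 71 tested, 63 rose and 0 fell, with a median of 0.22. This grouping was made after seeing the data.

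NDUFA13, an accessory complex I subunit also known as GRIM-19, was the only subunit called lower under TMM scaling. Scaled by plain library totals, 54 subunits were called higher and 3 lower. At chr19:19515736-19529054 on the plus strand, with 83.9% of its transcript under other exons, it read 3.02 and 3.39 CPM in the positive controls and 6.30 and 4.63 in the negative controls. The log2 fold change was -0.77 ± 0.15 (SE, FDR = 1.65e-06, edgeR exact test). Its serum libraries were also below all RES, POG and DEG libraries, which read 4.91, 4.69 and 4.73, 5.08, 5.62 and 6.22 and 4.86 and 4.83 CPM. NDUFA7, an accessory subunit with 77.9% of its transcript under other exons, read 0.627 and 0.498 against 0.852 and 0.830 CPM and was not called (interval -1.33 to 0.19). ATP5PO, the stalk subunit that confers sensitivity to oligomycin, went the other way at 22.1 and 19.2 against 16.7 and 15.2 CPM (0.37, FDR = 4.23e-05, same test). How reads that fall on more than 1 gene were counted was not given in the sources used here, so that the values of these 7 members are uncertain, and the part of the overlap in them was not tested.

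**Figure D4:**
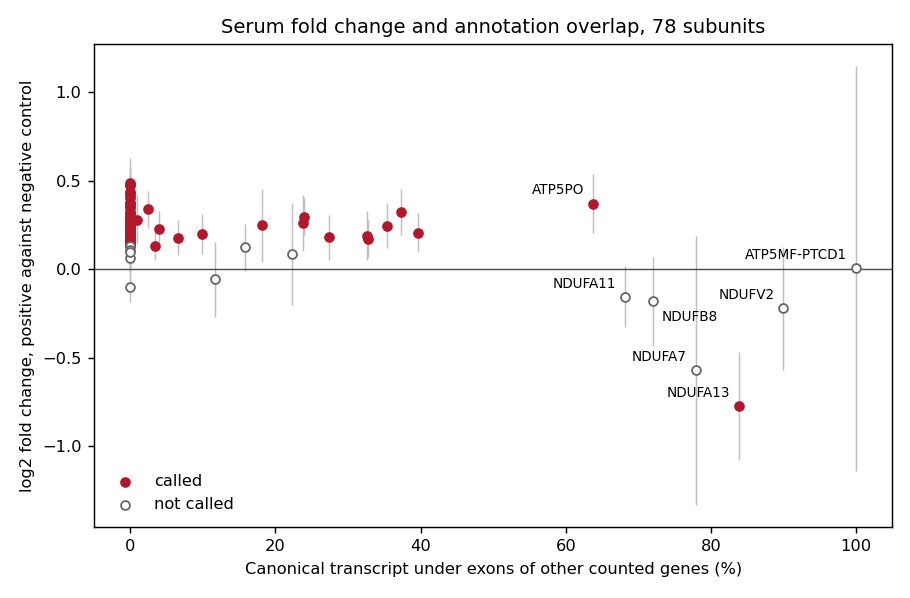
Log2 fold change of positive against negative control (y axis) with its 95% interval (lines) for the 78 tested subunits, against the percentage of the canonical transcript under exons of other counted genes (x axis). Filled points were called, and the 7 members over 50% are named. Of these only ATP5PO was called higher and only NDUFA13 lower.

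Genes that build or serve the complexes were also counted with serum, from lists drawn up with earlier results of these data known. These counts are to be read against the 21.4% of all genes tested that were called higher and the 20.9% called lower. Of 18 complex I assembly factors 11 rose and 0 fell, among them DMAC1 (31.6 against 22.3 CPM, log2 fold change 0.51, FDR = 1.58e-14, edgeR exact test) and NDUFAF3 (0.36). Of 24 tested complex IV assembly and translation factors 8 rose and 0 fell, led by SLIRP, a partner of LRPPRC in mitochondrial mRNA stability, at 0.58. Complex III factors counted 3 of 6 higher, with the Rieske protein translocase BCS1L at 0.48, ATP synthase factors 1 of 5 and complex II factors 0 of 4, with none lower. Of 15 genes for cytochrome c and coenzyme Q synthesis 5 rose, among them CYCS, cytochrome c itself, from 75.4 to 92.9 CPM. The counts for the complex IV factors, the ATP synthase factors and the cytochrome c and coenzyme Q genes were near the share over all genes, and nothing is read from them about these lists.

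The subunits encoded by mitochondrial DNA rose with serum as well, 11 of 13 with a median of 0.23, close in size to the nuclear-encoded subunits. MT-CO1, the catalytic subunit of complex IV, was at 9761 CPM with serum and 7899 without it (0.31). MT-ND1 of complex I was the exception that fell, at 1945 against 2217 CPM (-0.19, FDR = 7.25e-05, edgeR exact test). Of 14 tested regulators of mitochondrial gene expression 4 were higher and 4 lower, near the 21.4% and 20.9% of all genes. POLRMT, the mitochondrial RNA polymerase, rose by 0.22, while TFB1M, a mitochondrial rRNA methyltransferase, fell by 0.60. Muscle-type and testis-type isoforms and associated subunits outside the symbol rule passed the filter in 5 of 10 cases, of which 3 rose and 1, the testis isoform COX6B2, fell.

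The stretches upstream of the subunit genes were read because most subunits moved together with serum. RefSeq promoter windows (GRCh38.p14, 250 bases before to 50 after the start) were matched for 63 of the 79 members. They were searched on both strands for GCGCA followed by any base and GCGC, to which nuclear respiratory factor 1 (NRF1) binds, for CCGGAAG, the core of ETS family factors such as GABP, and for ATGGCGG, bound by YY1. The NRF1 letters were in 16 of 63 windows (25.4%) against 8.57% of 15842 protein-coding promoters of the same length, the ETS letters in 20 (31.7%) against 14.2%, and the YY1 letters in 19 (30.2%) against 7.63%. At least 1 of the 3 was in 42 windows (66.7%) against 26%. The protein-coding promoters were not limited to genes expressed in these cells, so the higher shares are not read as particular to the subunits. NDUFA4, CYC1 and ATP5F1B, which were among the largest rises with serum, had no matched window. The median GC content was 61.3% in the member windows and 62.7% in the protein-coding ones. The YY1 letters were mainly in complex I windows (13 of 31), the NRF1 letters in 4 of 7 windows of complex III and 0 of 9 of complex IV, and the ETS letters in 5 of 9 of complex IV.

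Examples from each complex are shown 5′ to 3′, with matched letters of either strand in capitals, for subunits that rose with serum with and without such letters. The bases lie upstream of the RefSeq start, and the strand of the gene is given.
NDUFB7 (chr19:14572077-14572126, - strand): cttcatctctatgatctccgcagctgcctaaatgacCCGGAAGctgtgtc
SDHA (chr5:218154-218262, + strand): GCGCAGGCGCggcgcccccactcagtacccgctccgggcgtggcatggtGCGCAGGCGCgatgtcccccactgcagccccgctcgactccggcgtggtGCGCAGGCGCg
SDHB (chr1:17054118-17054167, - strand): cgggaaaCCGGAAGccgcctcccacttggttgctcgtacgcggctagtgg
UQCRFS1 (chr19:29213162-29213211, - strand): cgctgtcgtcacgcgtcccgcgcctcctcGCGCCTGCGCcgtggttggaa
UQCR11 (chr19:1605482-1605582, - strand): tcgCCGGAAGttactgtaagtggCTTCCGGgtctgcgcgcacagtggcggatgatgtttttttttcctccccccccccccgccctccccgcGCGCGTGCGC
COX5A (chr15:74938084-74938133, - strand): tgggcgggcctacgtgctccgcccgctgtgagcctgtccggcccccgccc
COX5B (chr2:97646002-97646041, + strand): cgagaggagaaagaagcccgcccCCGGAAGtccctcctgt
ATP5PD (chr17:75047030-75047079, - strand): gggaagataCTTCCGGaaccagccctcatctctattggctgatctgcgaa
ATP5MC1 (chr17:48892712-48892761, + strand): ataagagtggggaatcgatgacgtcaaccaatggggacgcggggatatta
The SDHA window held 4 NRF1 matches, each starting 49 bases after the previous match, and 3 of them are within the printed stretch. NDUFB7, SDHB, COX5B and ATP5PD show ETS letters, UQCRFS1 NRF1 letters and UQCR11 both. COX5A and ATP5MC1, which rose by 0.48 and 0.37, held none of the 3 in the whole window, nor did UQCRC2 or ATP5F1A. A match is a run of letters and was not measured as a bound site in these cells. The mRNAs of NRF1, GABPA and YY1 were read as well, where 21.4% of all genes tested were called higher with serum and 20.9% lower. The activity of these factors was not measured, and their part in the rise with serum was not tested. NRF1 was at 24.2 against 24 CPM (not called, FDR = 0.932, edgeR exact test), and GABPA and YY1 were called lower, at -0.16 and -0.09.

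The next comparisons asked whether a compound given to serum-starved cells changed the subunits. With each compound 1 of the 78 subunits was called against the negative control, down with RES and POG and up with DEG. Among all genes tested, the share called for RES was 11.2% (4.94% higher, 6.21% lower), that for POG 14.5% (5.93% higher, 8.57% lower) and that for DEG 9.63% (3.52% higher, 6.11% lower). The 3 comparisons share the same 2 negative control libraries. RES gave a median log2 fold change of 0.02 over the subunits, POG of 0.01 and DEG of 0.03. The summed level of all subunits in RES libraries was 100.2% of that in the negative control, and it was 101% in both POG and DEG libraries. By complex it ran from 97.7% (complex III with RES) to 106% (complex II with DEG). Scaled by plain library totals, the calls were 2 higher and 0 lower for RES, 4 and 0 for POG and 3 and 0 for DEG.

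Most of these small differences had narrow intervals, which, like the p-values, measure the spread between these libraries only. For 67 of 78 subunits with RES, 70 with POG and 66 with DEG, the whole 95% interval of the log2 fold change lay within 0.25 of 0 (18.9% either way), against 11 with serum. That band was chosen after seeing the data. At an unadjusted p under 0.05 the edgeR exact test counted 8 subunits with RES, 9 with POG and 8 with DEG, where 22.9%, 25.5% and 20.7% of all genes tested passed the same mark.

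With RES the called subunit was NDUFA11, a membrane-arm accessory subunit of complex I, at 13, 14.5 and 13.6 CPM against 16.8 and 15.4. All 3 RES libraries were below both negative controls, and the log2 fold change was -0.23 (interval -0.39 to -0.07, FDR = 0.0359, edgeR exact test). NDUFA11 is among the 7 members that lie largely under another gene (68.2% of the transcript), and it lost its call in 4 of the 5 fits that left out a library, all but that without RES replicate 2. It was not called by edgeR's quasi-likelihood test (FDR = 0.0583) or DESeq2 (adjusted p = 0.102). It was also lower, without passing the test, with POG (-0.18), DEG (-0.17) and serum (-0.15).

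With POG the called subunit was ATP5F1A, at 195, 198 and 198 CPM against 212 and 212 in the negative controls. The 3 POG libraries were below both negative controls, and the difference was -0.11 in log2 units, a change of -7.14% (interval -0.17 to -0.04, FDR = 0.0202, edgeR exact test). It was opposite in sign to serum, where ATP5F1A rose by 0.32. DEG libraries were at 193 and 201 CPM, also below both negative controls, but did not pass the test (-0.11, FDR = 0.06). RES libraries, at 216, 211 and 219 CPM, overlapped with the negative controls. The call with POG was lost in each of the 5 fits that left out a library, with FDR between 0.0565 and 0.163.

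With DEG the called subunit was UQCRC2, a core protein of complex III, at 96.9 and 101 CPM against 87.1 and 91. Both DEG libraries were above both negative controls, and the log2 fold change was 0.15 (interval 0.06 to 0.25, FDR = 0.02, edgeR exact test). RES libraries read 96.2, 95 and 90.8 CPM and POG libraries 94.6, 93.5 and 92, higher on average than the negative controls but not called. Without negative control replicate 1 or without DEG replicate 2 the call of UQCRC2 was lost (FDR = 0.301 and 0.305).

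The compounds were also compared with each other at their shared dose of 1 µg/ml, in 3 pairs, with p-values adjusted over all genes tested within a pair. Between POG and RES 12 subunits differed, 7 higher and 5 lower with POG, where 27.9% of all genes tested were called (13.7% higher, 14.1% lower). Between DEG and RES 6 differed, 2 higher and 4 lower with DEG, where 21.2% of all genes were called (10.3% higher, 10.8% lower). Between DEG and POG 0 differed in the edgeR exact test, the quasi-likelihood test and DESeq2. Of all genes, 1.05% were called between DEG and POG in the exact test (0.55% higher, 0.497% lower). At an unadjusted p under 0.05 that test counted 5 subunits, where 10.7% of all genes tested passed the same mark.

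The 7 subunits higher with POG than with RES came from all 5 complexes. NDUFA4 read 30.1, 32.7 and 31 CPM with POG and 27.5, 30.0 and 25 with RES, CYC1 98.5, 104 and 105 against 92.7, 91.7 and 93.8, and SDHA 224, 221 and 223 against 208, 210.0 and 205. In CYC1 and SDHA the POG libraries stood clear above the RES libraries, while in NDUFA4 the lowest POG library was only just above the highest RES library. Log2 differences were 0.18 (FDR = 0.00602), 0.14 (FDR = 0.00265) and 0.10 (FDR = 0.00476) in the edgeR exact test. The other 4 were ATP5MC1 (0.15), NDUFS5 (0.11), NDUFV1 (0.10) and SDHC (0.09).

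Those lower with POG were ATP5MF (-0.14) and ATP5MG (-0.10), small membrane subunits of ATP synthase, NDUFB9 (-0.13), UQCRB (-0.09) and ATP5F1A (-0.13, FDR = 0.000304, edgeR exact test). ATP5F1A read 195, 198 and 198 CPM with POG and 216, 211 and 219 with RES, with no overlap. SDHA, CYC1 and ATP5F1A were called in every fit that left out a library, and these fits counted 4 to 9 subunits.

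DEG differed from RES in part in the same members, in a comparison that shares the RES libraries. SDHA read 227 and 223 CPM with DEG and was higher than with RES by 0.12 (FDR = 0.00518, edgeR exact test), and NDUFA4 read 31.1 and 32 and was higher by 0.20 (FDR = 0.0148). ATP5F1A (-0.13) and UQCRB (-0.12) were lower, together with ATP5F1C, the central shaft of the head (-0.13), and NDUFA3 (-0.17). Without DEG replicate 1 the count fell from 6 to 1. Between DEG and POG the intervals of SDHA (-0.05 to 0.08), NDUFA4 (-0.12 to 0.14) and ATP5F1A (-0.06 to 0.06) included 0, and for 70 of 78 subunits the interval lay within 0.25 of 0.

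**Figure D5:**
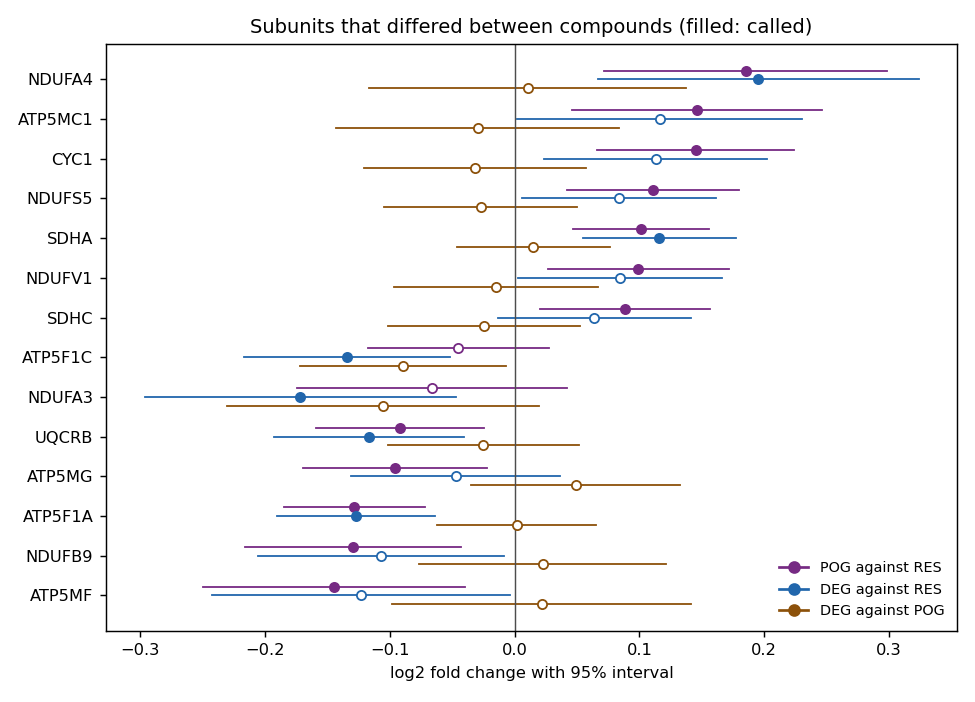
Log2 difference between compounds (x axis) with its 95% interval (lines) for the 14 subunits called in POG against RES or DEG against RES (y axis). Filled points were called at FDR under 0.05. Called differences stay between -0.17 and 0.20, and those of DEG against POG were not called.

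The mitochondrially encoded subunits were also set beside the nuclear-encoded ones. Of 13, 9 were lower than in the negative control with DEG, 4 with POG and 0 with RES, and none was higher, where 6.11%, 8.57% and 6.21% of all genes tested were called lower. MT-CYB, cytochrome b of complex III, was at 1793 CPM with DEG, 1993 with POG, 2248 with RES and 2142 in the negative controls. The log2 fold change with DEG was -0.26 (FDR = 1.25e-09, edgeR exact test). MT-ND6, the single subunit encoded on the light strand of mitochondrial DNA, had the largest falls, -0.43 with DEG and -0.39 with POG. It was also the lowest of the 13, at 48.5 to 72.0 CPM by plain library totals, against at least 317 for MT-ATP8, the next lowest. The strand setting of the counts was not given, so reads from the opposite strand may be included in the MT-ND6 values. The nuclear-encoded partners of cytochrome b in complex III had 0 of 9 called lower with either compound, and the difference between both sets of subunits was not tested.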

How the data were processed

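Poly(A)-selected mRNA libraries of hFOB 1.19 cells were sequenced by the study. The authors deposited raw counts per Ensembl gene, made with STAR and featureCounts on hg38 (BWA MEM is also named). Tool versions, the annotation release, strand and the handling of reads on overlapping genes were not given in the sources used here. The table held 12 libraries of 13 labelled samples, and DEG replicate 3 was not analysed here.

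Genes were filtered by filterByExpr (17092 kept, 99.97% of reads) and scaled by TMM, and dispersions were estimated over all 12 libraries. As in the study's methods, pairs of groups were compared by edgeR's exact test (edgeR 4.0.16, R 4.3.3), two-sided, with Benjamini-Hochberg adjustment over all genes tested and FDR under 0.05. SE and 95% intervals came from edgeR's quasi-likelihood fit. The scripts were tested on simulated counts. Transcript lengths, exons and biotypes were from GENCODE 44, and promoter windows from RefSeq (GRCh38.p14).

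Members and lists were chosen with earlier results of these data known. Named were, per comparison, up to 5 called members with the largest rise and fall whose libraries did not overlap, the highest and lowest member per kb in each complex, members called in opposite directions with serum and a compound, the SDH and ATP5MC genes, members below the filter and, per list, up to 3 called genes. Further members and list genes, the 20 CPM limit, the 0.25 band, the overlap grouping and the promoters shown were chosen after seeing values. Alternatives were the quasi-likelihood test, DESeq2 1.42.0, its size factors, plain totals, other filters, dispersions of the 2 groups compared and leaving out each library.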

Additional observations from a re-analysis of the deposited data

How the results depend on the processing

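No paired analysis was possible because the labels carry no replicate numbers, and numbers here only name libraries. With serum, the other settings called 56 to 66 subunits, and leaving out each library 50 to 67. With RES, 0 subunits were called by the quasi-likelihood test, by DESeq2, without a filter and among members of at least 20 CPM (added after seeing the data), 2 with plain totals, 3 with a mean of at least 1 CPM and 6 with dispersions from the 2 groups compared. Leaving out each library gave 0 to 2. With POG, 0 were called without a filter, 4 with plain totals, 3 with a mean of at least 1 CPM and 7 with dispersions from the 2 groups, and 0 without any single library. With DEG, DESeq2, plain totals and a mean of at least 1 CPM each gave 3 and dispersions from the 2 groups 4, and leaving out each library 0 to 1. Leaving out each library gave 4 to 9 between POG and RES and 1 to 5 between DEG and RES, where dispersions from the 2 groups gave 13. Between DEG and POG it gave 0 to 0. The causes were not tested. Of the 65 calls with serum, 54 were kept in all other settings. With 2 or 3 libraries a group, small differences of members at low counts were not detectable at this depth, as in ATP5MF-PTCD1.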
